A study of Mus musculus with 8 samples.

Results

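The Notch receptors, their ligands and the fringe glycosyltransferases were followed in pancreatic epithelium of mouse embryos. Every non-control probe of the array whose gene name was Notch1, Notch2, Notch3, Notch4, Dll1, Dll4, Jag1, Jag2, Mfng or Lfng was taken. All 10 genes were present, through 15 of the 41174 probes, of 19750 current gene symbols in all. RNA was measured on 8 one-colour Agilent arrays, 4 per genotype. The Sox9 mutant embryos were Sox9 fl/fl and carried Rosa26-CreER, a recombinase that tamoxifen activates and whose promoter is active in nearly all cell types, not in epithelium alone. The wild-type littermates are described as Rosa26-CreER alone. Dams of both were given tamoxifen at e12.5, 6 mg for each 40 g of body weight, so the controls shared recombinase and drug with the mutants. Dorsal and ventral epithelium were dissected by hand and combined at e15.5, and each RNA sample came from 4 pancreata of 4 embryos. The floxed line was on a mixed FVB/N, C57Bl/6J and CD1 background and the recombinase line on C57Bl/6J. The spread given below is therefore one between pools, and the tissue is called epithelium only as the labels call it.

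Notch receptors are single-pass membrane proteins that meet a Delta-like or Jagged ligand on a neighbouring cell. Binding lets proteases cut the receptor, and the freed intracellular part joins the DNA-binding protein Rbpj to switch on targets such as Hes1. In the embryonic pancreas Hes1 holds down Neurog3, the transcription factor that starts endocrine differentiation, and Neurog3-positive cells in turn carry Dll1. Fringes add a sugar to fucose on the receptor's EGF repeats and so set which ligands it answers to. Sox9 marks the progenitors and ducts from which endocrine precursors arise.

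Promoter windows of 300 bases, from 250 before to 50 after a RefSeq start (assembly GRCm38.p6), were matched for 9 of the 10 members, all but Mfng, with 2 windows for Dll1. Shown first are the upstream window of Dll1, the ligand of Neurog3-positive cells, and that of Dll3, a ligand outside the 10 with the largest called difference among the ligand genes listed. Both lie on the minus strand and are written 5′ to 3′. Capitals mark the letters CANNTG, the E-box to which basic helix-loop-helix factors such as Neurog3 can bind, and which reads the same on either strand.

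Dll1, chr17:15376883-15377182: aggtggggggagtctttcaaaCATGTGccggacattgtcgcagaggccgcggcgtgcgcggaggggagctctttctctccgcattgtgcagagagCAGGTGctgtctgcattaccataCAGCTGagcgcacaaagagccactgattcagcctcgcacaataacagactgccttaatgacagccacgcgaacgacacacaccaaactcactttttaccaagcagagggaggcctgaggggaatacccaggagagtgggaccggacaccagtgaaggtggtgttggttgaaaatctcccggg

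Dll3, chr7:28301736-28302035: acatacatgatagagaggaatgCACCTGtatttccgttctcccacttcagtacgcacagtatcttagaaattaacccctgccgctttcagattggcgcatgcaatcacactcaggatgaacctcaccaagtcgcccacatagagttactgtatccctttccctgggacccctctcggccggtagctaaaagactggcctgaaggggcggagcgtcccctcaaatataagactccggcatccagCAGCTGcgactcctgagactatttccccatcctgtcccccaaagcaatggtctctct

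The Dll1 window held 3 such matches and the Dll3 window held 2. Among the members, CANNTG was found in a window of 4 genes, Dll1, Jag1, Lfng and Notch4, while 72.3% of all 32851 windows of this length held it. TGGGAA, a core of the Rbpj site, was searched on both strands and found only in Lfng, against 25.6% of all windows. ACAAT, a core of the Sox site, was searched likewise and found in Dll1, Jag1 and Notch4, against 31.0% of all windows. A match is only a run of letters here, and binding was not measured.

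Levels are log2 of the processed signal minus that of the array's own 75th percentile, so a positive level is among the brighter spots of its array. A feature is 1 gene through its brightest probe, and a difference was called at a Benjamini-Hochberg adjusted p under 0.05 over all 19384 features in limma. The mutant arrays were all on 1 slide and in 1 scan run and the wild-type arrays all on another, so genotype, slide and scan run cannot be told apart. The array of mutant replicate 2 stood apart: its median signal was 756 units against 219 to 272 on the other 7 arrays. On it 86.1% of probes were well above background, against 69.6% to 74.0%. Its negative control spots were brighter too, with a median of 20.4 units against 4.43 to 6.47. Its median Pearson correlation across genes with the other arrays of its group was 0.923, against 0.9935 to 0.9956 for the others, so calls in the members and lists are also given without it where they differ. Sox9 itself had log2 levels of 0.52, 0.34, 0.45 and 0.40 in mutants, against 1.68, 1.82, 1.78 and 1.68 in wild type. Its log2 fold change was -1.32 (limma adjusted p 8.14e-04). A second Sox9 probe fell by 2.50, and the last did not pass the test (log2 fold change 0.65, adjusted p 0.338). The Sox9 signal in mutants was thus 40.2% of wild type on the main probe and 17.7% on the second. In wild type the second probe was the brighter, with a mean log2 level of 2.01 against 1.74. The deleted exons are not given in the sources used here.

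Of the 10 members, 1 passed the test: Mfng was lower in Sox9 mutants, while none of the 4 receptors, none of the 4 ligands and not Lfng was called. That is 10% of the members, against 5.46% of all features called, 2.22% higher and 3.24% lower. Without mutant replicate 2 it was again 1 of 10, against 17.3% of all features, 7.22% higher and 10.1% lower. The values of the genotypes did not overlap for 2 members, Mfng and Notch1, or 20%, against 25.5% of all features (34.8% without mutant replicate 2). Over the 10 members the median of the log2 fold changes was -0.023, against 0.0088 over all features. With 1 member called among 10, the share is read as near the background. In the fit over single probes, 1 of the 15 was called, against 3.91% of all probes. All 15 were well above background on all 8 arrays and none was saturated.

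**Figure D1:**
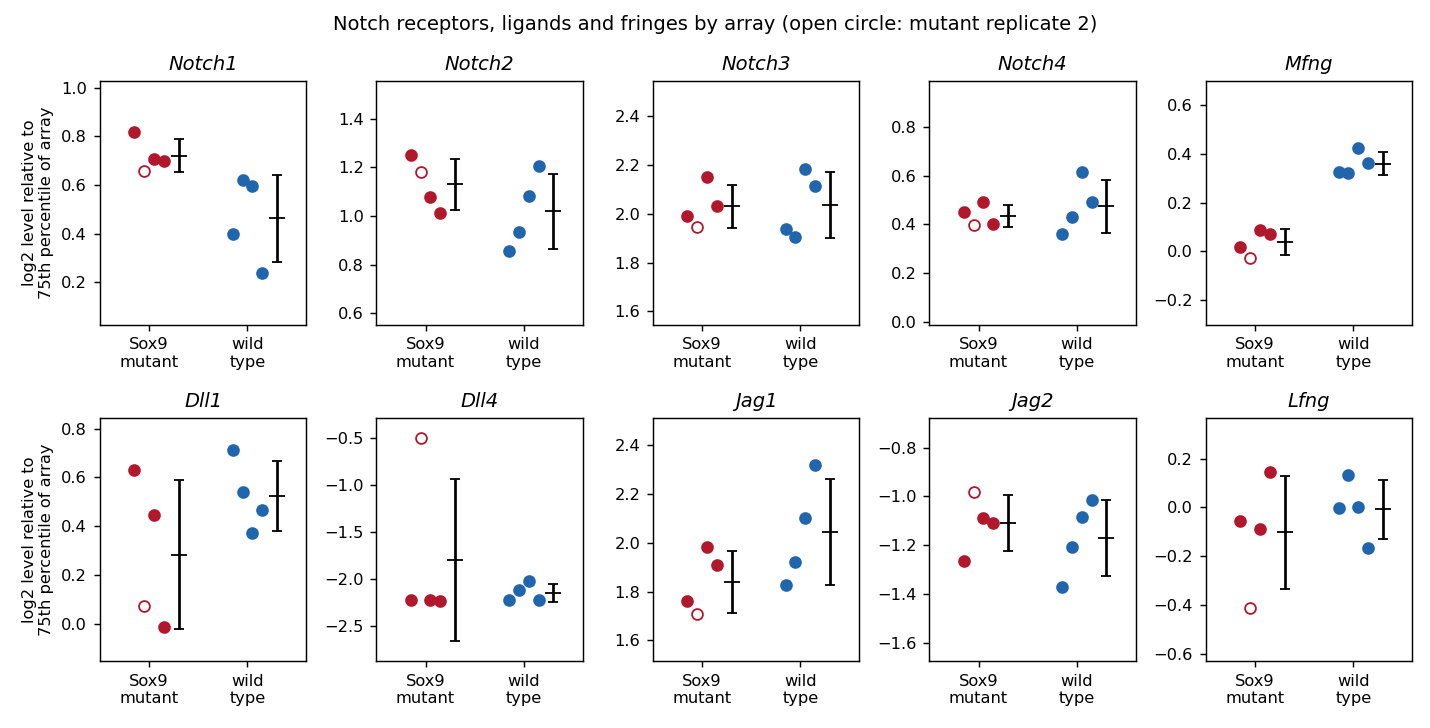
Log2 level, minus the array's 75th percentile, for each of the 10 members through its brightest probe, Sox9 mutants (red) left of wild type (blue). Each point is 1 array, bars are the mean and SD of 4 pools, and the open circle is mutant replicate 2; the vertical axes span different ranges. Only Mfng and Notch1 show no overlap between the genotypes, and Dll4 has 1 open circle at -0.50 far above all other arrays.

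Mfng encodes Manic fringe, and in mouse it has been described in Neurog3-positive endocrine precursors. Its probe (A_51_P231308, mm8, chr15:78583378-78583437) had log2 levels of 0.016, -0.028, 0.089 and 0.070 in mutants, against 0.33, 0.32, 0.42 and 0.36 in wild type. All 4 mutant values lay below all 4 wild-type values, with a gap of 0.23 between the nearest arrays. The mean was 0.037 ± 0.053 in mutants and 0.36 ± 0.047 in wild type (SD, n = 4 pools each). In limma this was a log2 fold change of -0.32, SE 0.057, with a 95% interval from -0.46 to -0.19 (adjusted p 0.0243), which left 80.0% of the wild-type signal. Permuting the genotypes over the arrays in all ways gave an exact two-sided p of 0.0286, the smallest that 4 against 4 can give. That p follows from the lack of overlap alone, which 25.5% of all features showed. Notch1, which was not called, had the same p in that test. The difference of Mfng is several times the spread within either genotype, and small as a fold, 1.25. The size hardly depended on mutant replicate 2 (log2 fold change -0.30 without it, adjusted p 0.0120), but the call did depend on which arrays entered. Without any one of the other 7 arrays the log2 fold change stayed between -0.34 and -0.30 and the adjusted p lay above the threshold, between 0.0566 and 0.0827, and Mfng was called in 6 of all 17 alternative settings.

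Most markers of endocrine precursors were also lower in mutants. The median log2 fold change of 9 such markers was -1.34, and -1.13 without mutant replicate 2. Over all features, 3.24% were called lower, or 10.1% without that array. Of the 9 markers, 7 were called lower in mutants and none higher (8 lower without mutant replicate 2). Among them were Neurog3 (-1.88, adjusted p 0.00240), Insm1 (-1.65, adjusted p 0.00255), Fev (-1.13, adjusted p 0.00282) and Pax4 (-1.72, adjusted p 0.00469), all transcription factors of the endocrine lineage. The sum of the 9 markers' linear levels, in units of the array's 75th percentile, was 4.37 to 5.58 in mutants and 9.22 to 10.5 in wild type. All were above background on all arrays except Neurod1, which was so on 3 of the 4 mutant arrays. Their part in the difference of Mfng was not tested, and in such tissue fewer cells of a type and less RNA per cell cannot be told apart. The named features whose levels were most like those of Mfng over the 8 arrays were Slc35f5 (Pearson r 0.994), Hmgn3 (0.992) and Mmp17 (0.992). All 3 were also called lower in mutants, with log2 fold changes of -0.62, -0.60 and -0.31. By the same measure r was 0.937 with Neurog3, 0.967 with Sox9 and -0.975 with Hes1. All these correlations share the genotype difference and the arrays' centring, and the first 3 were picked as the highest of all named features.

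Lfng, which encodes Lunatic fringe, has 2 probes on the array. On the brighter one (A_52_P187940, mm8, chr5:140867744-140867803) its log2 levels were -0.057, -0.41, -0.089 and 0.15 in mutants, against -0.0011, 0.13, 0.0033 and -0.17 in wild type. The genotypes overlapped, with mutant replicate 2 lowest and mutant replicate 4 highest of the 8 arrays. The log2 fold change was -0.094 (95% interval -0.39 to 0.20, limma adjusted p 0.645) and 0.0086 without mutant replicate 2. The second probe gave a log2 fold change of 0.22 (adjusted p 0.280), so the probes differed in sign and neither was called. Changes of Lfng beyond 1.31-fold in either direction lay outside the interval of the brighter probe.

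**Figure D2:**
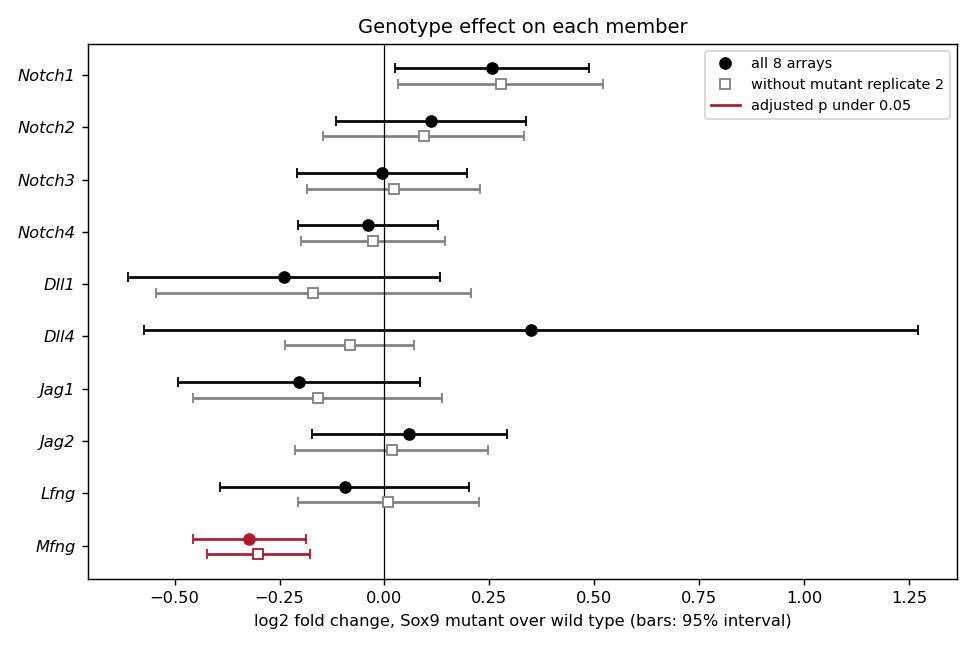
Log2 fold change of each member, Sox9 mutant over wild type, from limma on all 8 arrays (filled) and without mutant replicate 2 (open squares), with 95% intervals; red marks an adjusted p under 0.05. Mfng lies at -0.32 with all arrays and at -0.30 without mutant replicate 2, the interval of Notch1 runs from 0.026 to 0.49 without a call, and the wide interval of Dll4 narrows when mutant replicate 2 is left out.

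Notch1 is the receptor whose activated form keeps pancreatic progenitors undifferentiated in mouse. Its main probe (A_51_P508510, mm8, chr2:26281261-26281319) is printed 10 times on each array. Averaged over those spots, its log2 levels were 0.82, 0.66, 0.71 and 0.70 in mutants, against 0.40, 0.62, 0.59 and 0.24 in wild type. All 4 mutant values lay above all 4 wild-type values, but the nearest arrays were only 0.038 apart. Its log2 fold change was 0.26, SE 0.099, with a 95% interval from 0.026 to 0.49. Its unadjusted p was 0.0337 and its adjusted p 0.164 in limma, so Notch1 was not called, nor was it without mutant replicate 2 (0.28, adjusted p 0.107). At an unadjusted p under 0.05, 25.2% of all features passed, as did 2 of the 10 members. A second Notch1 probe (A_52_P183088) begins at the last base of the first, at chr2:26281319-26281378. It read 0.54, 0.056, 0.52 and 0.40 in mutants, against 0.19, 0.41, 0.35 and -0.018 in wild type. There the genotypes overlapped: mutant replicate 2 fell among the wild-type values, and mutant replicate 4 was just below the highest of them. Its log2 fold change was 0.15 (adjusted p 0.517), and 0.26 without mutant replicate 2 (adjusted p 0.151).

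The 10 Notch1 spots had an SD within an array of 0.029 to 0.131 (median 0.059), and the array means had an SD of 0.068 in mutants and 0.18 in wild type. Spots of 1 array leave out what differs from array to array. In wild type, replicates 1 and 4 were lower than replicates 2 and 3, and the spots of replicate 1 alone spanned 0.40.

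**Figure D3:**
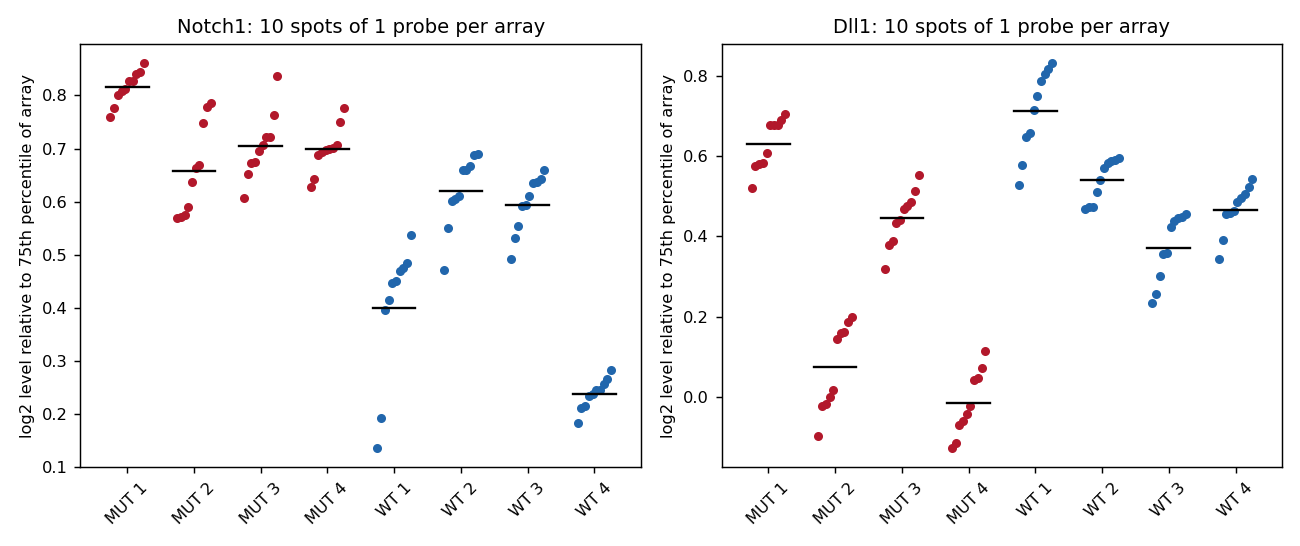
Log2 level of each of the 10 spots of the Notch1 probe (left) and the Dll1 probe (right) on every array, mutant arrays (red) left of wild-type arrays (blue), with a line at each array's mean. The Notch1 means run from 0.66 to 0.82 in mutants and from 0.24 to 0.62 in wild type, and the Dll1 means from -0.016 to 0.63 in mutants and from 0.37 to 0.71 in wild type.

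Notch2 is the other receptor found widely in pancreatic epithelium. On its brightest probe (A_52_P289213, mm8, chr3:98235396-98235455) it had log2 levels of 1.25, 1.18, 1.08 and 1.01 in mutants, against 0.86, 0.93, 1.08 and 1.20 in wild type. The ranges overlapped over most of their length. The log2 fold change was 0.11 (95% interval -0.12 to 0.34, limma adjusted p 0.487), and with 1 array left out it ranged from 0.057 to 0.17, the ends being the fits that dropped wild-type replicates 1 and 4. A second probe, A_52_P448796, read -2.42, -2.51, -2.67 and -2.70 in mutants, against -2.98, -2.82, -2.68 and -2.96 in wild type. It gave 0.28, at an unadjusted p of 0.0238 and an adjusted p of 0.153. A further probe, A_51_P216397, gave 0.38 (adjusted p 0.386), and 0.11 without mutant replicate 2, which at -3.57 was the highest array. All 3 probes of Notch2 had a positive log2 fold change and none was called.

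Notch3 is the receptor of vascular smooth muscle and pericytes. On its probe (A_51_P220162, mm8, chr17:31849609-31849668) the log2 levels were 1.99, 1.95, 2.15 and 2.03 in mutants, against 1.94, 1.91, 2.18 and 2.11 in wild type. The mutant values lay wholly within the wild-type range, and the log2 fold change was -0.0057 (95% interval -0.21 to 0.20, limma adjusted p 0.972). Notch4 is a receptor of endothelium. Its probe (A_51_P195875, mm8, chr17:34196231-34196290) had levels of 0.45, 0.40, 0.49 and 0.40 in mutants, against 0.36, 0.43, 0.62 and 0.49 in wild type. Again the mutants lay inside the wild-type range, with a log2 fold change of -0.040 (95% interval -0.21 to 0.13, adjusted p 0.732). For both genes, changes beyond 1.16-fold in either direction lay outside the interval.

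Both these receptors, and the ligand Dll4, are known mainly from vessels, and RNA of vessel cells was present in the tissue. All 13 endothelial markers were well above background on all arrays, led by Cd34, Egfl7, Cdh5 and Flt1, and none was called in either direction. Their summed linear level was 41.5 to 51.3 in mutants and 46.4 to 52.8 in wild type, and their median log2 fold change was 0.022. Without mutant replicate 2 the mutant sums were 48.8 to 51.3, and Emcn was called higher. Of 10 mural and smooth muscle markers, led by Acta2, Kcnj8, Pdgfrb and Tagln, 1 was called: Rgs5 was lower (-0.74, adjusted p 0.0444). Their sum was 50.3 to 58.7 in mutants and 54.0 to 60.1 in wild type. Mesenchymal markers, led by Col1a2, Col1a1, Col3a1 and Vim, were above background on all arrays too, with Barx1 (0.28) and Nkx3-2 (0.58) called higher. Isl1 (-0.87), listed with them but also an islet factor, was called lower, and which cells this concerns was not tested. Krt8, Krt18, Cdh1 and Foxa2, the brightest of the 8 epithelial markers, were measured in both genotypes and not called with all 8 arrays. Cldn6 (0.48) was called higher and Pdx1 (-1.04) lower. The epithelial sum was 165 to 224 in mutants (201 to 224 without mutant replicate 2) and 161 to 174 in wild type. The duct and trunk sum was 56.4 to 72.4 in mutants and 88.4 to 100 in wild type. For neuron and Schwann cell markers it was 6.57 to 7.71 and 9.75 to 11.5, and the mesenchymal and blood sums overlapped. Of 12 mesenchymal markers 25% were called, against 5.46% of all features. Of 10 duct and trunk markers 40% were called: besides Sox9 and Hes1, Spp1 (-1.13) was lower and Onecut1 (0.95) higher. Among 10 blood markers 10% were called, Hbb-y (1.68) as higher. Among 8 neuron and Schwann cell markers 25% were called, S100b (-1.62) and Sox10 (-1.04) both lower. Without mutant replicate 2, all of these calls held and more were added in most lists. Among the 8 epithelial genes, Krt8 (0.32, adjusted p 0.0125) and Krt18 (0.42, adjusted p 0.0301) were then called higher, which made 50% of that list against 25% with all arrays. The share over all features also rose, to 17.3% from 5.46%. Of the duct markers, Krt19 (0.48), Cftr (1.47) and Bicc1 (0.27) were then called higher too. Further calls in that fit were Des and Twist1, both higher, and Lum and Elavl4, both lower. Which cells carried each Notch member's RNA was not tested.

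Dll1 is the ligand through which endocrine precursors signal to their neighbours. Its single probe (A_51_P306017, mm8, chr17:15072622-15072681), with 10 spots per array, had log2 levels of 0.63, 0.073, 0.45 and -0.016 in mutants, against 0.71, 0.54, 0.37 and 0.47 in wild type. Mutant replicates 2 and 4 were below every wild-type pool, and mutant replicates 1 and 3 were inside the wild-type range. The SD was 0.305 between mutant pools and 0.144 between wild-type pools, against a median of 0.075 between spots of 1 array (0.053 to 0.108). Limma gave a log2 fold change of -0.24, SE 0.16, with a 95% interval from -0.61 to 0.13 (adjusted p 0.374). It was -0.17 without mutant replicate 2 (adjusted p 0.480), and with any 1 array left out it lay between -0.35 (without mutant replicate 1) and -0.14 (without mutant replicate 4). Levels between 0.654 and 1.10 times the wild-type signal lay inside the interval over all 8 arrays, so neither no difference nor a moderate fall lay outside it. On the same arrays Neurog3 had log2 levels of -1.32 to -0.66 in mutants, against 0.78 to 1.07 in wild type. The named features most like Dll1 over the 8 arrays were Ercc3 (Pearson r 0.954), Zfp414 (0.950) and 4833422M21Rik (0.943), none of them called. All were picked as the highest r of all named features. 4833422M21Rik was dim, with mean log2 levels of -6.32 in mutants and -5.70 in wild type.

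Dll4 is a ligand of arterial endothelium. Its probe (A_51_P384402, mm8, chr2:119026484-119026543) had log2 levels of -2.23, -0.50, -2.23 and -2.24 in mutants, against -2.22, -2.12, -2.03 and -2.23 in wild type. On 3 mutant arrays it was within 0.21 of every wild-type array, and on mutant replicate 2 it was far above all. The log2 fold change of 0.35 (95% interval -0.57 to 1.27, limma adjusted p 0.584) rests on that array, and it was -0.083 without it (adjusted p 0.402). Jag1 is a ligand of ducts and vessels. Its brighter probe (A_52_P634090, mm8, chr2:136773138-136773197) had levels of 1.76, 1.71, 1.98 and 1.91 in mutants, against 1.83, 1.92, 2.10 and 2.32 in wild type. The 2 lowest arrays were mutant and the 2 highest wild type, with overlap between. Its log2 fold change was -0.20 (95% interval -0.49 to 0.084, adjusted p 0.334), and -0.11 without wild-type replicate 4. The second Jag1 probe, A_51_P280906, read -3.63, -0.72, -3.69 and -3.52 in mutants, against -3.40, -3.39, -3.51 and -3.25 in wild type. Leaving out mutant replicate 2, the other 3 mutant values lay below all wild-type values and the log2 fold change was -0.23 (adjusted p 0.0911), while with it the value was 0.50 (adjusted p 0.635). Jag2 is the second Jagged ligand, and its probe (A_51_P451338, mm8, chr12:113356484-113356543) had levels of -1.26, -0.98, -1.09 and -1.11 in mutants, against -1.37, -1.21, -1.09 and -1.01 in wild type. These overlapped almost wholly (log2 fold change 0.059, 95% interval -0.17 to 0.29, adjusted p 0.713).

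**Figure D4:**
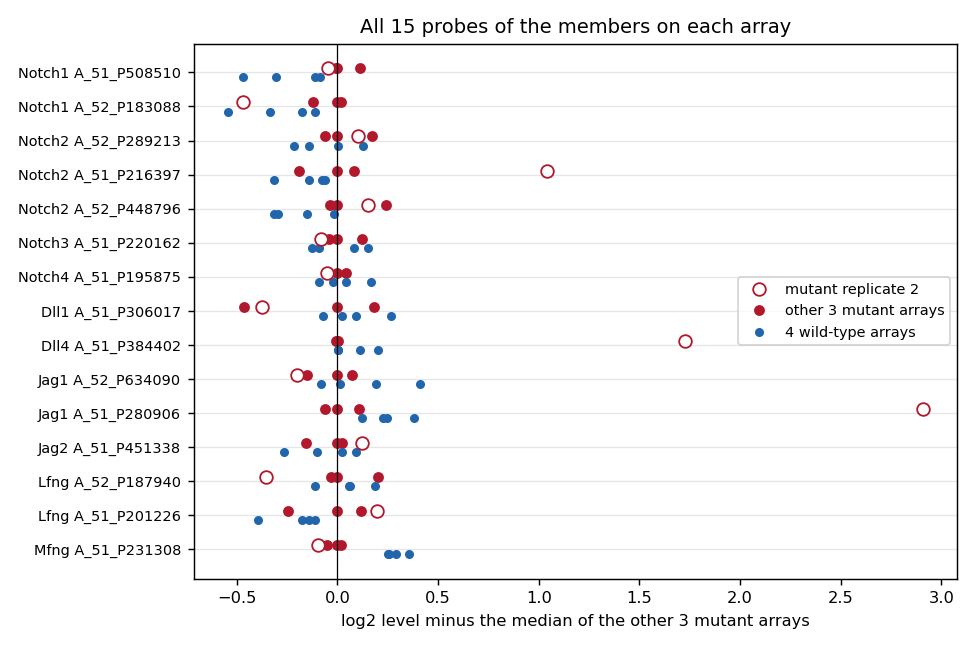
Log2 level of each of the 15 probes on every array, minus the median of mutant replicates 1, 3 and 4, with mutant replicate 2 (open), the other 3 mutant arrays (red) and the 4 wild-type arrays (blue). Mutant replicate 2 lies 2.91 above that median for the second Jag1 probe, 1.73 for Dll4 and 1.04 for 1 Notch2 probe, and within 0.47 of it for the other 12.

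The other genes of the pathway were read from the same fit. Of 54 genes 53 were tested (Dtx3l was not), and 5 were called, 1 higher and 4 lower, or 9.43% against 5.46% of all features. The median of their log2 fold changes was -0.12, against 0.0088 over all features. Without mutant replicate 2 there were 1 higher and 9 lower, or 18.9% against 17.3%. The median was then -0.073, against -0.020 over all features. The gene called higher was Hes1, the repressor that active Notch induces. Its log2 levels were 0.61, 0.64, 0.48 and 0.56 in mutants, against -0.043, 0.12, 0.020 and 0.0043 in wild type. No arrays overlapped, and the log2 fold change of 0.54 (limma adjusted p 0.00690) was called with any 1 array left out. The other 9 targets and feedback genes, among them Hey1, Heyl and Nrarp, were not called with all 8 arrays. Without mutant replicate 2, however, 2 further Hes genes were called lower, opposite in direction to Hes1. Hes5 was then at -0.40 (adjusted p 0.0179), against -0.14 (adjusted p 0.733) with all arrays. Hes7 was then at -0.42 (adjusted p 0.0461), against 0.066 (adjusted p 0.935) with all arrays.

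Among ligands outside the 10, Dll3, a Delta-like protein that does not activate receptors on neighbouring cells, had log2 levels of -3.70, -4.73, -3.39 and -3.95 in mutants, against -2.44, -2.62, -2.51 and -2.44 in wild type. All mutants lay below all wild-type pools, and the probe was well above background on 3 of the 4 mutant arrays and on all wild-type arrays. It had a log2 fold change of -1.44, SE 0.27 (limma adjusted p 0.0275), and -1.18 without mutant replicate 2 (adjusted p 0.00282). It was called in 2 of the 8 fits that left out 1 array. Dlk2, listed on the array as Egfl9, is a Delta-like protein that lacks the DSL domain of the classical ligands, and it was lower, with a log2 fold change of -0.32 (adjusted p 0.0481). Dlk1 (0.085, adjusted p 0.524) and Dner (-1.20, adjusted p 0.144) were not called.

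The other calls lay in separate steps of the pathway. Aph1b, a subunit of the gamma-secretase that cuts the receptor within the membrane, had levels of -0.57, -0.80, -0.48 and -0.67 in mutants, against -0.11, -0.15, -0.10 and -0.035 in wild type. Its log2 fold change was -0.53 (limma adjusted p 0.0142), it was the only call among 10 cleavage genes, and it held in 6 of the 8 fits that left out 1 array. Dtx4, a Deltex-family ubiquitin ligase, was lower, with a log2 fold change of -0.50 (adjusted p 0.0220) as the only call among 9 tested trafficking genes. Dtx4 and Dlk2 were each called only without mutant replicate 2 when 1 array was left out. No gene was called among 3 of receptor glycosylation, where Poglut1 (0.16, adjusted p 0.169) and the remaining fringe, Rfng (-0.14, adjusted p 0.382), had the smallest p. None was called among 6 of ligand endocytosis, where Epn1 (-0.28, adjusted p 0.0979) and Neurl1b (-0.21, adjusted p 0.234) had the smallest p. The 11 genes of the nuclear complex and corepressors read here held no call, and Hdac1 (-0.27, adjusted p 0.0684) and Ctbp1 (-0.27, adjusted p 0.119) had the smallest p among them. Without mutant replicate 2, Epn1 (-0.21, adjusted p 0.0336), Hdac1 (-0.22, adjusted p 0.0362) and Ctbp1 (-0.19, adjusted p 0.0385) were all called lower.

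**Figure D5:**
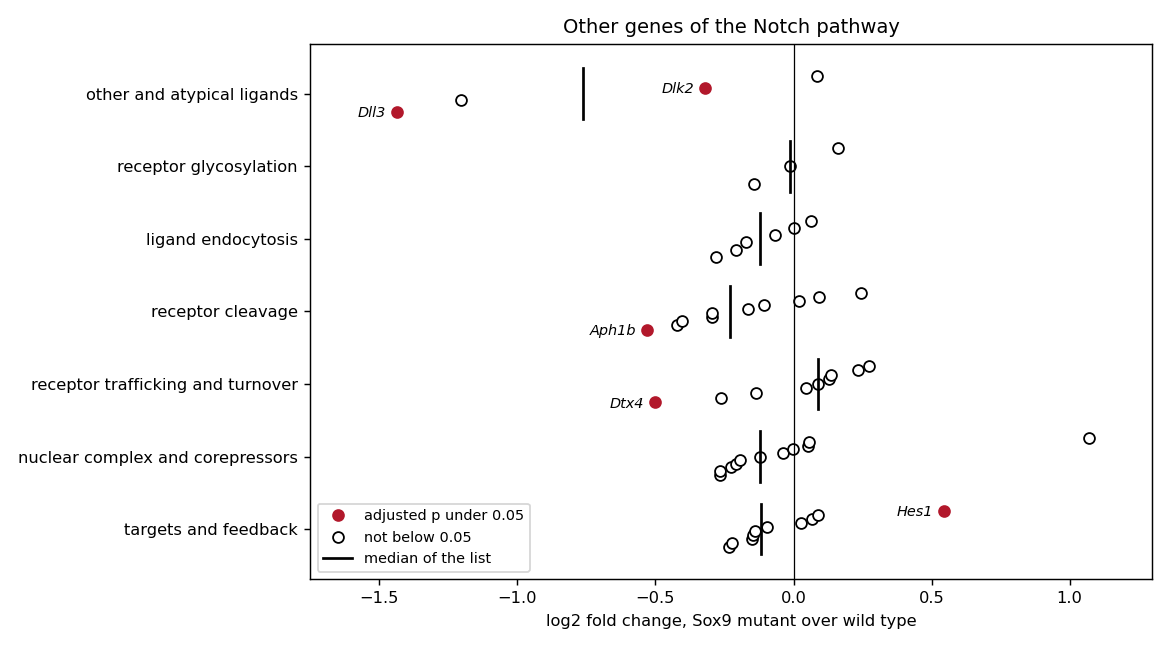
Log2 fold change, Sox9 mutant over wild type, of 53 other genes of the Notch pathway by step; filled red points have an adjusted p under 0.05 and a black bar is the median of the step. Hes1 (0.54) is the 1 gene called higher, and Dll3, Dlk2, Aph1b and Dtx4 are the 4 called lower.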

How the data were processed

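RNA of 4 Sox9 mutant and 4 wild-type pools was measured on one-colour Agilent arrays of design 014868. The deposited values are, per the file headers, an intensity in linear scanner units from Feature Extraction 9.5.3.1, with background and spatial trends removed by the scanner software and no normalization between arrays. The submitters' processing notes name limma with no version or steps, and the deposited series table, also an intensity, served only as an alternative. Probe names and mm8 coordinates are those of the files.

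Control spots and outlier spots were left out, log2 spots of a probe were averaged, and each array's 75th percentile was subtracted. Probes well above background on at least 4 of 8 arrays (29447) were kept, and the brightest probe of each gene was used (19384 features). limma 3.58.1 (R 4.3.3, lmFit and eBayes, genotype only, two-sided) was fitted to all features, and separately to all probes, with Benjamini-Hochberg adjustment. Values for second probes come from the fit over probes. Only the limma step was tested on simulated data, made at the level of features with spreads taken without mutant replicate 2. The number of arrays limits the precision, and the labels call the pools biological replicates. Replicate numbers were not used as pairs in the main fit, and they are the positions on the slides. Same-numbered arrays' deviations correlated at -0.025 to 0.13, against -0.16 to 0.13 for arrays of unlike number. Such values cannot show whether pools shared litters.

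The text names Sox9, the members with all their probes, Neurog3 and Hes1, the called genes of each pathway list or the 2 with the smallest p, up to 4 of the highest and up to 4 called markers of a list, and the 3 features most like Mfng and Dll1. Some further genes of a list are named without values or to complete a list. List genes called only without mutant replicate 2 were named after their values were seen. One gene of the nuclear list is not reported here and is left out of the pathway counts. The members and lists were chosen with earlier results of these data known. Alternatives in centring, background correction, filter, probe choice, weights, blocking and arrays left out were run.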

Additional observations from a re-analysis of the deposited data

Results flagged for a closer look

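Within each genotype, the highest and lowest of the 4 arrays were set against the others for the members, their second probes, the genes of the lists that were called with all arrays or without mutant replicate 2, and the uncalled genes named with values. Of 132 such groups, 17 held an array far from the rest, by a gap above Dixon's critical value for 4 samples. Chance gives such a gap in about 1 of 20 groups, and genes called only without mutant replicate 2 were included because of that array. That array, mutant replicate 2, was the one apart in 12 of the 17.

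Among the members these were Dll4, with a log2 level of -0.50 against -2.24 to -2.23 on the other mutant arrays (a gap of 0.994 of the whole range), and the second Jag1 probe (A_51_P280906), with -0.72 against -3.69 to -3.52 (0.943 of the range). Mutant replicate 2 was also the highest mutant array for Hes5 (-2.20 against -3.33 to -3.20), Cftr (-0.16 against -3.69 to -3.58), Twist1 (-1.26 against -3.26 to -2.98), S100b (-0.017 against -0.94 to -0.82) and Barx1 (0.998 against 0.938 to 0.947). It was the lowest for Ctbp1 (3.23 against 3.53 to 3.57), Neurod1 (-4.74 against -2.96 to -2.80), Cbfa2t3 (0.592 against 0.944 to 1.001), Bicc1 (4.33 against 4.74 to 4.79) and Lum (3.45 against 3.80 to 3.85). The higher median signal, brighter negative controls and larger share of probes above background of that array are given earlier. Their part in these values was not tested.

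On other arrays, Sox10 was at -1.05 in mutant replicate 3 against -1.54 to -1.46 in the other mutants. In wild type, replicate 4 was apart for Hdac1 (3.62 against 3.72 to 3.74) and Des (0.350 against 0.311 to 0.314), and replicate 1 for Ctbp1 (3.79 against 3.72 to 3.73) and Zfp414 (2.024, the nearest other array at 2.004).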

How the results depend on the processing

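Against the 1059 features reported as called, the count was 56 with median centring, 103 with normexp background correction (21 higher and 82 lower, against 431 and 628), 2188 with the authors' series table, 420 with no filter on dim probes, 116 with the replicate block, 4756 with array weights, and 359 to 3357 with 1 array left out. Median centring moved the median log2 fold change of all features to -0.38, so values under it are read against that shift. The 1 member call, and likewise the 1 probe call, became 0 with median centring, normexp, no filter and the replicate block, and lay between 0 and 1 with 1 array left out, when only leaving out mutant replicate 2 kept it. Mfng was lower under all 17 alternatives, with log2 fold changes of -0.71 to -0.23 and adjusted p of 0.00345 to 0.528, and was called in 6. Either change of filter, the mean of a gene's probes and the replicate block could not move its log2 fold change from -0.32, only its adjusted p. The count of 5 other pathway genes became 0 with median centring, normexp and the replicate block, 2 with quantile normalization, 2 with no filter, 3 with the mean of a gene's probes, 15 with array weights, and 1 to 10 with 1 array left out. Hes1 was higher under all 17, from 0.16 with median centring to 0.58, and not called with median centring, normexp or the replicate block. Its log2 fold change likewise stayed at 0.54 with either change of filter, the mean of probes and the replicate block. Sox9 was -1.70 with median centring, at an adjusted p of 0.0936, and called under the other 16.

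Signs turned for members that were not called. With median centring Notch1 was -0.13, Notch2 -0.28, Dll4 -0.037 and Jag2 -0.33. That setting subtracts 1 other value per array and so moves all log2 fold changes alike. These values lay above the median of all features under it, -0.38, so they were not lower relative to other genes. Quantile normalization gave Notch3 0.088 and Jag2 -0.093, normexp gave 0.062 and -0.023, and the authors' deposited values gave 0.053 and -0.024. Array weights gave Notch3 0.064 and Dll4 -0.087, and the mean of a gene's probes gave Jag1 0.15 and Lfng 0.065. With 1 array left out Notch3 ranged from -0.049 to 0.044, Notch4 from -0.078 to 0.0073, Dll4 from -0.083 to 0.50, Jag2 from -0.0077 to 0.11 and Lfng from -0.18 to 0.0086. Apart from the common shift under median centring, the causes were not tested. For Dll1 the authors' table was not used here. The replicate block could not change a direction, since both genotypes hold the same replicate numbers, and it bears only on the p-values. All member probes were well above background on all arrays, and the intervals given show what 4 pools per genotype could resolve.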
